A study of Mus musculus with 8 samples.

Results

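The genes described here are 8 kallikrein-related peptidases of the epidermis (Klk5, Klk6, Klk7, Klk8, Klk9, Klk10, Klk11 and Klk13), their inhibitor gene Spink5 and the corneodesmosin gene Cdsn. They were taken by symbol, and all 10 had a row among the 19457 rows of the table and passed the filter on low values, as did 11870 genes in all. RNA sequencing was done on keratinocytes grown in primary culture from mouse skin and collected before they reached confluence. There were 4 libraries from HdR mice, whose genotype is HOIL1 ΔRING1 (an altered form of HOIL-1, a subunit of the linear ubiquitin ligase complex encoded by Rbck1), and 4 from wild-type (WT) mice. The labels give no strain, age, zygosity or treatment for either genotype, and do not say whether the libraries of 1 genotype came from separate animals, so the p-values measure only the spread between these libraries, which may be technical.

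Kallikrein-related peptidases are secreted serine proteases that upper epidermal cells make as inactive precursors. They are activated in a cascade and, in the outermost skin layer, cut the adhesion proteins that hold dead cells together, so that cells are shed. LEKTI, the product of Spink5, carries many Kazal-type inhibitor domains and restrains these proteases, and loss of human SPINK5 causes Netherton syndrome, a disease of excess shedding and skin inflammation. Corneodesmosin is a secreted glycoprotein that glues cornified cells to each other at modified desmosomes and is itself cut by kallikreins.

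Of the 10 genes, Klk10 rose and Klk5, Klk7, Klk11, Klk13 and Cdsn fell in HdR, while Klk6, Klk8, Klk9 and Spink5 did not pass the test. Klk13 was barely present and met the filter only through its WT values. The calls are two-sided tests with limma, a linear model of log2 levels that shares variance information between genes, with p-values adjusted by the Benjamini-Hochberg method over 11870 genes. Genes were called at an adjusted p under 0.05, a rule that called 21.3% of genes higher and 23.9% lower in HdR. Thus 1 of 10 was higher and 5 of 10 were lower, or 4 of the 9 that remain without Klk13. The median log2 fold change (HdR minus WT) was -0.67 for the 10 genes, -0.71 without Klk13 and -0.01 for all genes tested. Levels are written as aligned bases per Mb, the bases of reads aligned to a gene per megabase (Mb) aligned in the library after scaling. Because these were bulk cultures, a smaller number of differentiating cells and less transcript in each cell cannot be told apart.

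Some features of the whole series bear on these values. The HdR libraries were shallower, with 3.52 ± 0.857 Gb of aligned bases, against 5.09 ± 0.267 Gb in WT (SD, n = 4 each), and every HdR library lay below every WT library. Depth and genotype therefore cannot be told apart. With all libraries thinned to the smallest one the 6 calls remained, but thinning evens only the read number and does not separate depth from genotype. Rbck1 had 43.7 ± 1.82 aligned bases per Mb in HdR and 87.5 ± 3.42 in WT (SD, n = 4 each). This is a log2 change of -0.99 ± 0.046 by limma (SE, adjusted p = 1.01e-10), measured over the whole gene, so the altered part was not read separately. All 11 basal keratinocyte markers were present, with summed levels of 46976 to 48433 aligned bases per Mb in HdR and 42869 to 45931 in WT, and 8 were called higher and 0 lower. Fibroblast markers summed to 0.121 to 4.69 in HdR and 0.118 to 0.88 in WT, endothelial markers to 1.22 to 1.85 in HdR and 0.483 to 0.783 in WT, and immune markers to 3.27 to 4.81 in HdR and 4.27 to 6.78 in WT, with Cd207 and Lyz2 at 0 in every library. Melanocyte markers summed to 27.7 to 29.7 in HdR and 53.0 to 61.1 in WT, and 6 of 7 tested were lower. Among these 6, Tyr (0.635 ± 0.0529 in HdR, 1.86 ± 0.223 in WT; SD, n = 4 each) met the filter only through WT. Sebocyte and gland markers summed to 449 to 463 in HdR and 323 to 355 in WT, and of 6 tested 4 were higher and 0 lower. These were Plin2 and Scd1, which made up most of the sum, and the simple epithelial keratin genes Krt8 (4.59 ± 0.38 in HdR, 2.14 ± 0.584 in WT) and Krt18 (2.47 ± 0.538 in HdR, 0.948 ± 0.389 in WT; SD, n = 4 each), and Krt18 met the filter only through HdR. Beside these counts stand 21.3% of all genes called higher and 23.9% called lower. The part of these marker lists in the changes of the kallikrein genes was not tested. WT 4 was the lowest WT library for 7 of the 10 genes, and the value of each of these without it is given.

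**Figure D1:**
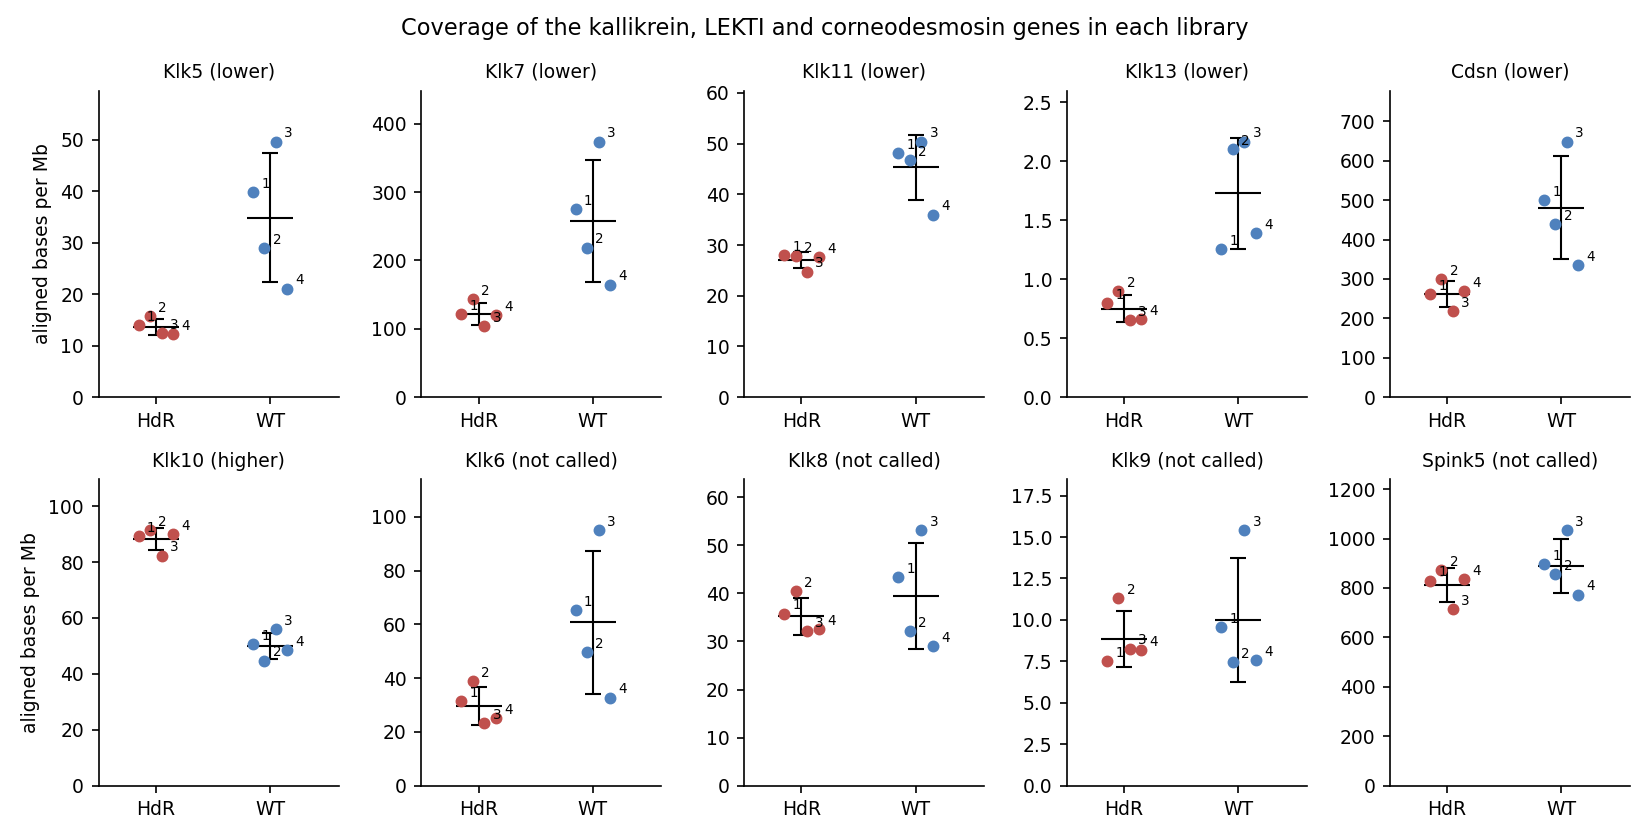
Coverage of each gene in each library, in aligned bases per Mb on a linear axis from 0 (HdR left, WT right, points numbered by library, bar and whiskers at the mean ± SD, n = 4). Klk10 is higher in all HdR libraries than in any WT library, Klk5, Klk7, Klk11, Klk13 and Cdsn are lower in all of them, and the WT points of most genes spread from WT 3 at the top to WT 4 near the bottom.

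Klk5 encodes a trypsin-like protease that can activate itself and other kallikreins, Klk7 among them, and is held to start the cascade. The gene lies on chromosome 7, 43841971 to 43851181 (GRCm38, plus strand). Its coverage was 14.0, 15.7, 12.5 and 12.2 aligned bases per Mb in HdR 1 to 4, against 39.8, 29.0, 49.6 and 21.1 in WT 1 to 4. The HdR values lay close together below the lowest WT value, and the WT values differed more than 2-fold among themselves. Klk5 fell by 1.23 ± 0.27 on the log2 scale (SE, limma adjusted p = 0.00957), the largest fall of the 10 genes. Without WT 4 the log2 fold change was -1.45 ± 0.17 (limma adjusted p = 0.000393).

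Klk7 encodes a chymotrypsin-like protease of the cornified layer that cuts corneodesmosin and desmocollin 1. It lies on chromosome 7, 43811294 to 43816359 (plus strand). Its coverage was 121, 143, 104 and 119.5 aligned bases per Mb in HdR 1 to 4, against 276, 219, 374 and 165 in WT 1 to 4. No HdR value reached the lowest WT value, that of WT 4. Klk7 fell by 1.02 ± 0.26 on the log2 scale (SE, limma adjusted p = 0.0201). The call was lost without HdR 1 (-1.02, limma adjusted p = 0.0504), HdR 3 (-0.95, adjusted p = 0.0561) or WT 1 (-0.97, adjusted p = 0.0569). Without WT 4 the log2 fold change was -1.21 ± 0.21 (limma adjusted p = 0.00677). Genes that were called lower and also fell by log2 1 or more numbered 127 (1.07% of those tested), and Klk5 and Klk7 were 2 of them.

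Klk11 encodes a trypsin-like kallikrein of the upper epidermis. It lies on chromosome 7, 43774604 to 43779263 (plus strand). Its coverage was 28.0, 27.9, 24.8 and 27.6 aligned bases per Mb in HdR 1 to 4, against 48.1, 46.7, 50.4 and 36.0 in WT 1 to 4. The genotypes did not overlap, and the replicates agreed more closely than for Klk5 and Klk7. Klk11 fell by 0.71 ± 0.089 on the log2 scale (SE, limma adjusted p = 3.56e-05). Without WT 4 the log2 fold change was -0.82 ± 0.061 (limma adjusted p = 3.86e-08). In the stricter test against a fold of 1.2 (limma treat), which called 4.57% of genes lower, Klk11 was the 1 member of the 10 called lower (adjusted p = 0.0033).

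Klk13, a trypsin-like kallikrein gene at the edge of the group (chromosome 7, 43712567 to 43727534, plus strand), was barely present. It had 0.795, 0.897, 0.651 and 0.66 aligned bases per Mb in HdR 1 to 4, against 1.26, 2.1, 2.17 and 1.39 in WT 1 to 4. Every HdR value lay under every WT value. Klk13 fell by 0.63 ± 0.14 on the log2 scale (SE, limma adjusted p = 0.00169). It passed the filter, a mean of at least 1, only through its WT values, and the pseudocount of 1 used before taking logs sets much of its fold (-1.08 with a pseudocount of 0.1 and -0.22 with a pseudocount of 5). Its lowest library held 5.08 read-pair equivalents (aligned bases divided by the 302 bases of a full read pair).

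Klk6 and Klk8 encode trypsin-like kallikreins that are also known from the nervous system, Klk8 under the name neuropsin. Klk6 (chromosome 7, 43824499 to 43832030, plus strand) had 31.5, 39.0, 23.2 and 25.1 aligned bases per Mb in HdR 1 to 4, against 65.4, 49.7, 95.1 and 32.8 in WT 1 to 4. The genotypes overlapped, because HdR 2 lay above WT 4. Its log2 fold change was -0.93 ± 0.35 (SE, limma adjusted p = 0.0743), as large as those of called genes but with the widest spread of the 10. It was called without WT 4 (-1.19 ± 0.29, adjusted p = 0.0228). It was also called with no filter on low values (adjusted p = 0.0423). Klk8 (chromosome 7, 43797577 to 43803826, plus strand) had 35.8, 40.4, 32.2 and 32.5 aligned bases per Mb in HdR 1 to 4, against 43.4, 32.2, 53.2 and 29.1 in WT 1 to 4. Klk9, a less studied kallikrein gene (chromosome 7, 43791891 to 43796757, plus strand), had 7.54, 11.3, 8.27 and 8.19 aligned bases per Mb in HdR 1 to 4, against 9.54, 7.46, 15.4 and 7.57 in WT 1 to 4. For both genes the genotypes overlapped. The log2 fold change of Klk8 was -0.12 with a 95% interval of -0.61 to 0.36, and that of Klk9 was -0.12 with an interval of -0.65 to 0.41 (limma adjusted p = 0.66 and 0.703). Without WT 3 the direction turned, to 0.031 for Klk8 and 0.091 for Klk9. Without WT 4 the log2 fold change of Klk8 was -0.25 (limma adjusted p = 0.298).

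Klk10 went the other way. It encodes a secreted kallikrein first described in normal human breast epithelium, and its substrates in skin are less well known than those of Klk5 and Klk7. The gene lies on chromosome 7, 43781035 to 43785410 (plus strand), the next annotated gene of the group after Klk11. Its coverage was 89.2, 91.4, 82.3 and 90.01 aligned bases per Mb in HdR 1 to 4, against 50.6, 44.8, 56.1 and 48.6 in WT 1 to 4. The lowest HdR value stood well above the highest WT value, and the spread within a genotype was the smallest of the 10 genes, at 4.61% of the mean in HdR and 9.41% in WT. Klk10 rose by 0.81 ± 0.059 on the log2 scale (SE, limma adjusted p = 2.36e-08), 1.76-fold by the means. It was also called higher against a fold of 1.2 (adjusted p = 3.69e-06), a rule that called 2.9% of genes higher. It was called in all 20 alternatives, at 0.76 to 0.87.

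Spink5, the inhibitor gene (chromosome 18, 43963235 to 44022501, plus strand), was strongly expressed in both genotypes. It had 829.7, 873, 713 and 837 aligned bases per Mb in HdR 1 to 4, against 897, 855, 1034 and 773 in WT 1 to 4. The genotypes overlapped, with HdR 2 above WT 2 and WT 4. Its log2 fold change was -0.13 ± 0.10 (SE, limma adjusted p = 0.353), with a 95% interval of -0.36 to 0.11. Single libraries moved this value, to -0.05 without WT 3, -0.06 without HdR 3 and -0.19 without WT 4 (limma adjusted p = 0.661, 0.609 and 0.113), and it was called in none of these.

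Cdsn, the gene of the kallikrein substrate corneodesmosin (chromosome 17, 35552128 to 35557180, plus strand), was also lower. It had 263, 299, 219 and 269 aligned bases per Mb in HdR 1 to 4, against 500.0, 439, 649 and 335 in WT 1 to 4. Every HdR value lay below WT 4, the lowest WT value. Cdsn fell by 0.84 ± 0.21 on the log2 scale (SE, limma adjusted p = 0.0197). The call was lost without HdR 3 (-0.76, limma adjusted p = 0.0538) or WT 1 (-0.81, adjusted p = 0.0553), and without WT 4 the log2 fold change was -1.0 ± 0.17 (adjusted p = 0.00625). In 6 of the 10 genes HdR and WT values were fully separated, 1 higher (Klk10) and 5 lower in HdR, or 4 lower without Klk13, which met the filter only through WT. Over all genes tested, 19.9% were separated with HdR higher and 21.3% with HdR lower.

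The kallikrein genes described here lie in a group on chromosome 7, and Klk12, described below, lies between Klk13 and Klk11. From Klk13 the starts of Klk11, Klk10, Klk9, Klk8, Klk7, Klk6 and Klk5 lie 62.0, 68.5, 79.3, 85.0, 98.7, 111.9 and 129.4 kb along the plus strand. Along this order the log2 fold change was -0.63 for Klk13 and -0.71 for Klk11 at one end, then 0.81 for Klk10, -0.12 for both Klk9 and Klk8, and -1.02, -0.93 and -1.23 for Klk7, Klk6 and Klk5 at the other end. The values stepped at Klk10 and again between Klk8 and Klk7, and whether they follow the order of the genes was not tested. The single gene that rose, Klk10, stands between Klk11, which fell, and Klk9, which did not pass the test. The log2 ratio of Klk10 to Klk11 within a library was 1.64, 1.68, 1.69 and 1.67 in HdR 1 to 4, against 0.07, -0.06, 0.15 and 0.42 in WT 1 to 4. This ratio compares the same pair of genes across libraries. That it did not overlap between genotypes follows from the separation of each gene in opposite directions and adds no further support. The long noncoding gene 2310002F09Rik runs on the opposite strand across Klk13, Klk11, Klk10, Klk9 and Klk8. Whether reads were counted by strand is not given in the sources used here, and its own coverage was low, at 0.1 ± 0.0874 aligned bases per Mb in HdR and 0.332 ± 0.141 in WT (SD, n = 4 each). Of the flanking genes within 100 kb of the group, 1 passed the filter: Ctu1, a tRNA modification gene, had 11.4 ± 1.62 in HdR and 11.7 ± 1.09 in WT (SD, n = 4 each), and its log2 change was -0.03 ± 0.096 by limma (SE, adjusted p = 0.797).

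**Figure D2:**
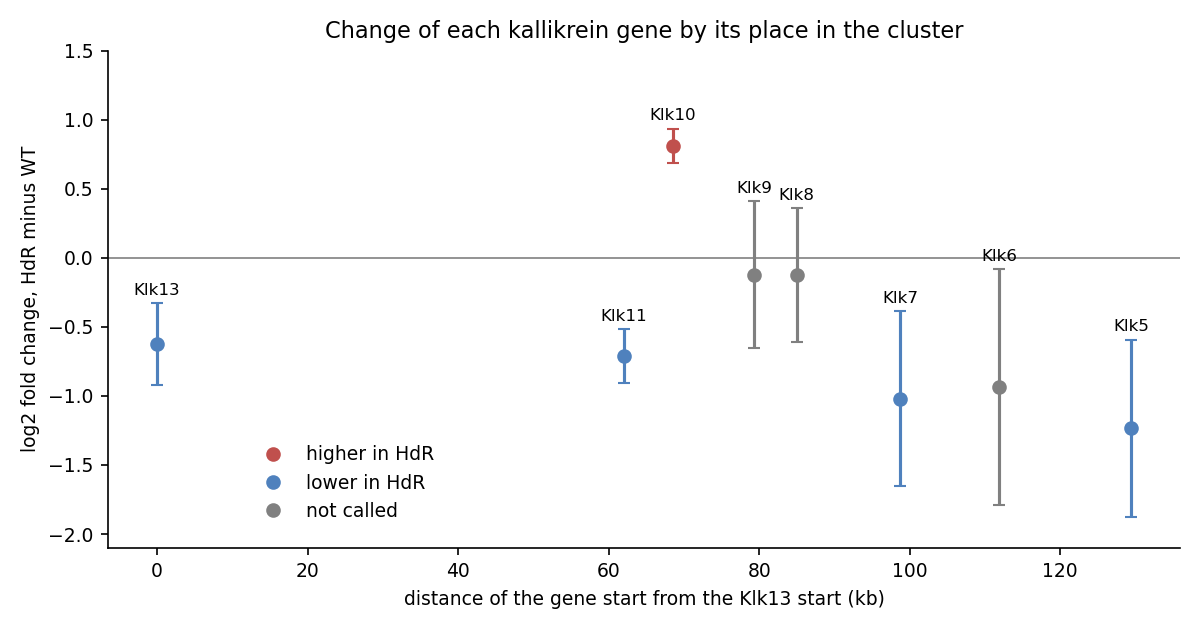
Log2 fold change (HdR minus WT) of each kallikrein gene with its 95% interval, against the distance of its start from the start of Klk13 in kb. Red, blue and grey mark genes higher in HdR, lower in HdR and not called. Klk10, at 0.81, stands between Klk11 at -0.71 and Klk9 at -0.12.

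The sequence around the RefSeq start is shown for the members on which the contrast turns. These are Klk10 and Klk11, neighbours that changed in opposite directions, and Klk5 and Klk7, the 2 largest falls of the main comparison. With a pseudocount of 0.1, Klk13 fell further (-1.077) than Klk7 (-1.025). Each line is the RefSeq window (GRCm38.p6, plus strand) from 250 bases before the RefSeq start to 50 bases from it, at chr7:43780804-43781103, chr7:43774367-43774666, chr7:43842019-43842318 and chr7:43811044-43811343, in the order printed. The Klk5 window lies wholly inside the annotated gene (43841971 to 43851181), so none of it is upstream of that annotated start. Capitals mark matches to the motifs searched below.
Klk10: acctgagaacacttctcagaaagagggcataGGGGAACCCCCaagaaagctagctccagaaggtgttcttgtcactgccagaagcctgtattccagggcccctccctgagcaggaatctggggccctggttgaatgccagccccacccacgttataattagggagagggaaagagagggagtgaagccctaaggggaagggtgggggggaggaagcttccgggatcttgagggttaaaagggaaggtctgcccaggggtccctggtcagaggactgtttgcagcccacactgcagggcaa
Klk11: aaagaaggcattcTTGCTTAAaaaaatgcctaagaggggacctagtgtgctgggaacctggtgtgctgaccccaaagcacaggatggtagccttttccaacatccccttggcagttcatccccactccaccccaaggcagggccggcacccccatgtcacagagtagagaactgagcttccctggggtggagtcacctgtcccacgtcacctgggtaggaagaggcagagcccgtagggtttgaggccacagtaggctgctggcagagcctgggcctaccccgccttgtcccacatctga
Klk5: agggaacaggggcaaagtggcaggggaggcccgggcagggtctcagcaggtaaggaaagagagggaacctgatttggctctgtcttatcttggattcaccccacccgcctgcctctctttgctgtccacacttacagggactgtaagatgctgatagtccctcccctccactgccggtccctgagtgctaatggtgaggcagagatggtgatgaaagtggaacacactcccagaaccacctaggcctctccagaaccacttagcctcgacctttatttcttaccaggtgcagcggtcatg
Klk7: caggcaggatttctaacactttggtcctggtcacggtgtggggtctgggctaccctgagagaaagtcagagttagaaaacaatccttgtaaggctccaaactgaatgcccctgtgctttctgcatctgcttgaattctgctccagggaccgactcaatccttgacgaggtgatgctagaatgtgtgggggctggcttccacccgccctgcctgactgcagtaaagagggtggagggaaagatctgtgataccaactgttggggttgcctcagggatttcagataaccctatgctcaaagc
Windows were found for 9 of the 10 genes, 12 windows in all, since Klk6, Klk11 and Cdsn have 2 each. On both strands, the TATA box motif TATAAA was in 0 of the 12 windows and in 13.6% of all 32851 windows of the same length, and the AP-1 motif TGANTCA in 0 of 12 and 7.81%. The C/EBP motif TTGCNNAA was in 3 of 12, belonging to Cdsn and Klk11, and in 10.8% of all windows. The NF-κB consensus was in 3 of 12, belonging to Klk9, Klk10 and Klk11, and in 8.46% of all windows. In the Klk10 window it matched at overlapping positions 219 and 218 bases before the start, shown in capitals, and in Klk11 the capitals are the C/EBP match 237 bases before the start. The NF-κB match of Klk11 is in its other window, so genes that changed in opposite directions both held one. These matches describe letters in a window and say nothing of binding.

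Divided by merged exon length, the coverage shows how much of each transcript there was. The order per kb of exon in HdR was Spink5 at 170 ± 14.5 aligned bases per Mb per kb, Cdsn at 98.0 ± 12.3, Klk7 at 64.3 ± 8.38, Klk10 at 64.3 ± 2.96, Klk8 at 22.9 ± 2.48, Klk6 at 19.6 ± 4.74, Klk11 at 18.5 ± 1.05, Klk5 at 10.2 ± 1.18, Klk9 at 5.98 ± 1.15 and Klk13 at 0.327 ± 0.0513 (SD, n = 4). In this order Klk7 and Klk10 lay within these SDs of each other, as did Klk8 and Klk6, and Klk6 and Klk11. The order in WT was Spink5 at 186 ± 22.8, Cdsn at 179.5 ± 48.9, Klk7 at 136 ± 47.1, Klk6 at 40.1 ± 17.5, Klk10 at 36.4 ± 3.43, Klk11 at 30.9 ± 4.35, Klk5 at 26.1 ± 9.34, Klk8 at 25.6 ± 7.16, Klk9 at 6.77 ± 2.53 and Klk13 at 0.752 ± 0.205 (SD, n = 4). In WT, Cdsn overlapped with Spink5 and with Klk7 within these SDs, and from Klk6 to Klk8 each gene overlapped with the next. Klk10 thus stood level with Klk7 in HdR and well under it in WT. Annotated exons may be longer than the transcripts made here, so these levels are approximate.

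The summed kallikrein coverage overlapped between the genotypes, whereas the shares of Klk10, Klk7, Klk5, Klk8 and the barely present Klk13 in it did not. The shares of Klk6, Klk9 and Klk11 overlapped. The summed coverage per kb of the 8 kallikreins was 208, 233, 183 and 200.1 aligned bases per Mb per kb in HdR 1 to 4, against 323, 261, 418 and 209 in WT 1 to 4, so HdR 2 lay above WT 4. Klk10 made up 31.3, 28.6, 32.7 and 32.8% of that sum in HdR 1 to 4, against 11.4, 12.5, 9.76 and 16.9% in WT 1 to 4. Klk7 made up 30.7, 32.4, 30.02 and 31.5% in HdR 1 to 4, against 45.0, 44.2, 47.1 and 41.6% in WT 1 to 4. Klk5 made up 4.94 ± 0.242% in HdR and 8.49 ± 0.731% in WT (SD, n = 4 each). The share of Klk8 was 11.1 ± 0.378% in HdR and 8.5 ± 0.465% in WT (SD, n = 4 each), without overlap, although its own level did not pass the test. These shares are a description and were not tested. A share also moves when other members change.

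**Figure D3:**
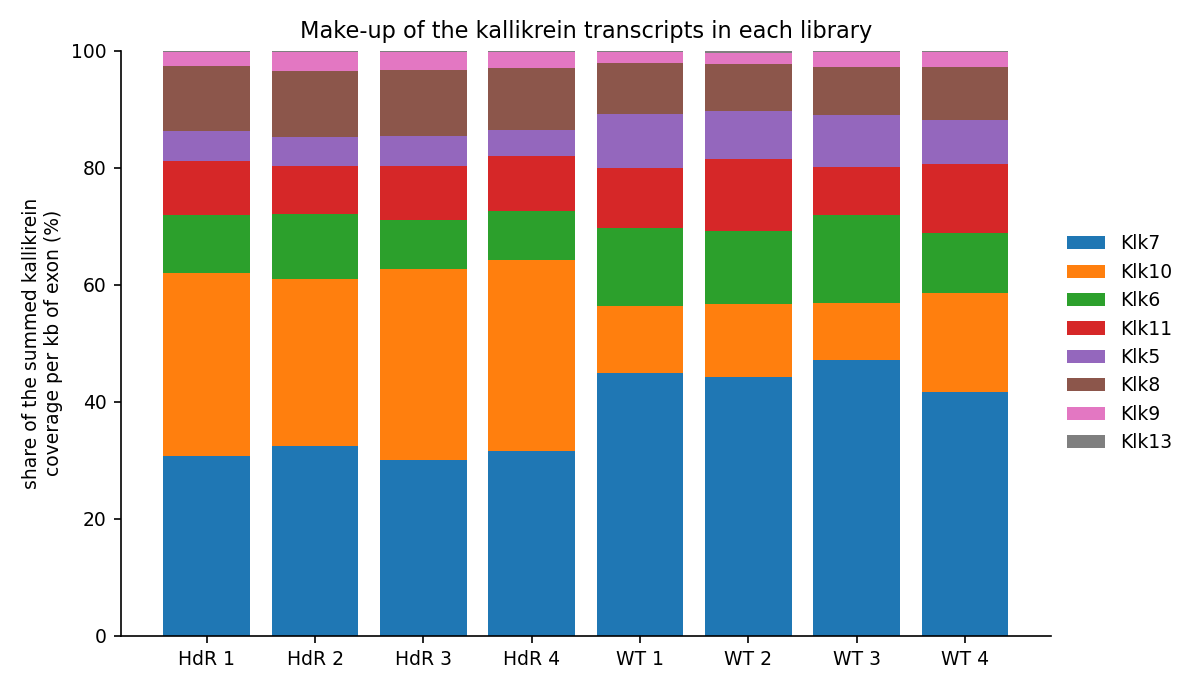
Share of each kallikrein in the summed kallikrein coverage per kb of exon, in percent, with 1 stacked bar per library (HdR left, WT right). Klk10 takes 28.6 to 32.8% in HdR and 9.76 to 16.9% in WT, and Klk7 takes 30.02 to 32.4% in HdR and 41.6 to 47.1% in WT.

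Set against the inhibitor within each library, the proteases also split. The ratio is the difference of log2 levels, gene minus Spink5, and depends on gene lengths, so only its change between genotypes can be read. For Klk5 it was -5.79, -5.71, -5.72 and -5.98 in HdR 1 to 4, against -4.46, -4.84, -4.35 and -5.13 in WT 1 to 4. For Klk7 it was -2.77, -2.60, -2.76 and -2.80 in HdR 1 to 4, against -1.70, -1.96, -1.47 and -2.22 in WT 1 to 4. Both ratios were lower in every HdR library than in any WT library. For Klk10 the ratio was -3.19 ± 0.061 in HdR and -4.12 ± 0.11 in WT (SD, n = 4 each), higher in every HdR library. The ratios of Klk11, Klk13 and Cdsn to Spink5 were also separated and lower in HdR. Those of Klk6, Klk8 and Klk9 overlapped, and for Klk8 the means were -4.49 in HdR and -4.49 in WT. The separated ratios belong to the genes whose own levels were separated, and Spink5 was not called. These ratios therefore add no further support.

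The WT libraries were not alike for these genes, and they ranked in the same way for most of them. WT 3 was the highest WT library for all 10 genes, and 7 genes had the order WT 3, WT 1, WT 2, WT 4. The ratio of the highest to the lowest WT library was 2.9 for Klk6, 2.35 for Klk5, 2.27 for Klk7 and 1.93 for Cdsn, but 1.34 for Spink5 and 1.25 for Klk10. Among the HdR libraries the same ratios were 1.68, 1.28, 1.37, 1.36, 1.22 and 1.11, and HdR 3 was the lowest for most genes. A score of 25 suprabasal and cornified envelope genes (the mean log2 level after centring each gene on its mean over the 8 libraries) was -0.32, -0.21, -0.50 and -0.34 in HdR 1 to 4, against 0.41, 0.26, 0.66 and 0.04 in WT 1 to 4. The libraries rank in this score as they do for Klk7 and Cdsn within WT, with WT 3 highest and WT 4 lowest. Klk10 covered a narrower range within each genotype, and its genotypes stood apart in the opposite direction to the score. The score's part in the changes of the kallikrein genes was not tested.

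**Figure D4:**
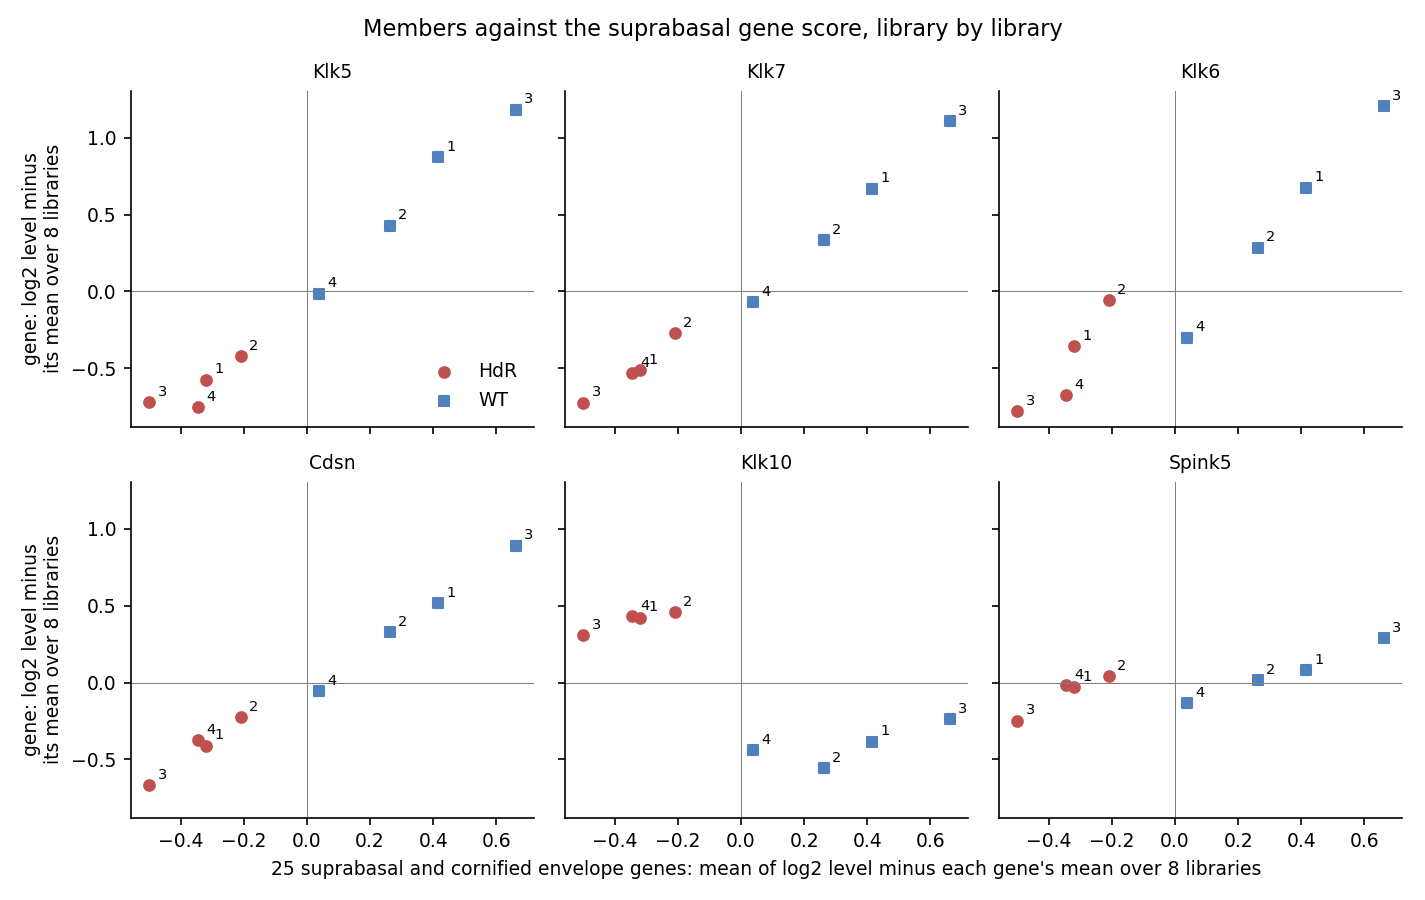
Log2 level of 6 genes, each minus its mean over the 8 libraries, against the mean of the same measure over 25 suprabasal and cornified envelope genes (circles HdR, squares WT, numbers the libraries). Klk5, Klk7 and Cdsn run upward with the score through both genotypes, Spink5 covers a narrower range, and the HdR points of Klk10 lie above its WT points at lower scores.

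Some members had closely similar patterns over the libraries. Likeness was measured as the root mean square difference over the 8 libraries of log2 levels, each gene centred on its own mean. Among the members the closest pairs were Cdsn and Klk7 at 0.12, Klk5 and Klk7 at 0.13, and Klk8 and Klk9 at 0.13. Over all genes tested, the 3 nearest to Klk7 were Serpinb11, Cidea and Sprr1a, at 0.07 each. The serpin gene Serpinb11 was also the nearest to Klk5, at 0.10, followed by the phospholipase gene Pla2g2f and the calmodulin-like gene Calml3. The nearest to Cdsn were the gasdermin gene Gsdma at 0.06, Sprr1a and Cidea, and those nearest to Klk11 were Rab11fip1 at 0.03, the trichohyalin gene Tchh and Pof1b. The nearest to Klk10 were Acot7, an acyl-CoA thioesterase gene, the keratin gene Krt90 and Procr, which encodes the endothelial protein C receptor, at 0.07, 0.08 and 0.08. Procr had 115 ± 1.33 aligned bases per Mb in HdR and 65.1 ± 1.95 in WT (SD, n = 4 each). Likeness was taken over both genotypes, so a nearest gene shares the direction of its member by construction.

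Proteases that act on or beside kallikreins were called in both directions, and the rule called 21.3% of all genes higher and 23.9% lower. Of 14 membrane-anchored and secreted trypsin-like protease genes 9 were tested, with 3 called higher, 2 lower and 4 not called (median log2 fold change 0.01). St14, which encodes matriptase, an epithelial protease that can activate kallikrein precursors, had 264 ± 9.6 aligned bases per Mb in HdR and 219.6 ± 10.3 in WT (SD, n = 4 each), and rose by 0.27 ± 0.040 on the log2 scale (SE, limma adjusted p = 4.41e-05). Tmprss11e rose by 0.36 ± 0.074. The transmembrane protease gene Tmprss4 had 141 ± 5.01 in HdR and 228 ± 14.7 in WT (SD, n = 4 each), and fell by 0.69 ± 0.045 on the log2 scale (SE). Tmprss13 fell by 0.51 ± 0.060. Of 12 proteases with other roles in cornified cells 11 were tested, of which 6 were lower, 0 higher and 5 not called (median -0.13). Asprv1, the aspartic protease gene of filaggrin processing, had 125, 157, 102 and 139 aligned bases per Mb in HdR 1 to 4, against 392, 294, 582 and 238 in WT 1 to 4. It fell by 1.46 ± 0.30 on the log2 scale (SE, limma adjusted p = 0.00862), again with WT 3 highest and WT 4 lowest. The cathepsin gene Ctsb, the calpain gene Capn1 and Blmh, which encodes bleomycin hydrolase, fell by 0.30, 0.12 and 0.16. Without HdR 3 the count lower in this list was 3 and the count higher 1, without WT 2 the count higher was 1, and against a fold of 1.2 the count lower was 0.

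Of 18 other serine protease inhibitor genes with a row in the table, 11 did not pass the filter, 8 of them Spink genes. Of the 7 tested, 6 were lower and 1 higher, where the rule called 23.9% of all genes lower and 21.3% higher. Their median log2 fold change was -0.79, against -0.01 for all genes tested. Serpina12 encodes vaspin, a serpin that inhibits human KLK7. It had 2.8, 3.62, 3.0 and 3.59 aligned bases per Mb in HdR 1 to 4, against 15.9, 12.2, 20.2 and 7.55 in WT 1 to 4. The genotypes did not overlap, and Serpina12 fell by 1.74 ± 0.27 on the log2 scale (SE, limma adjusted p = 0.00131), more than any kallikrein. Spint2, a Kunitz-type inhibitor of matriptase and prostasin, had 272 ± 8.75 in HdR and 333 ± 19.2 in WT (SD, n = 4 each), and fell by 0.29 ± 0.041. The whey acidic protein family genes split, with Wfdc12 lower (-1.26 ± 0.16) and Wfdc2 higher (1.04 ± 0.12, SE), both with mean levels under 5 aligned bases per Mb in each genotype.

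Desmosomal genes that were called were lower in HdR, and the few signalling genes tested went both ways. The rule called 21.3% of all genes higher and 23.9% lower. The desmosomal list holds cadherins, the kind of protein kallikreins cut outside the cell, and also intracellular plaque proteins. Of its 16 genes, 8 were lower, 0 higher and 8 not called (median -0.23), with 1 called higher under upper-quartile scaling or with library totals only. Dsg1a, which encodes a form of the suprabasal cadherin desmoglein 1, had 136 ± 11.3 aligned bases per Mb in HdR and 251 ± 27.8 in WT (SD, n = 4 each), and fell by 0.88 ± 0.094 on the log2 scale (SE, limma adjusted p = 0.000136). It has close copies, and how reads shared between copies were counted is not given in the sources used here. The plakophilin gene Pkp1, Perp and the plakoglobin gene Jup fell by 0.35, 0.34 and 0.26. Of 8 genes for protease-activated receptors, cytokines and an antimicrobial peptide, 4 were tested, of which 2 were higher, 1 lower and 1 not called. F2rl1, which encodes PAR2, the receptor that KLK5 activates by cleavage, had 158, 166, 159 and 172 aligned bases per Mb in HdR 1 to 4, against 131, 116, 137 and 142 in WT 1 to 4. It rose by 0.32 ± 0.054 on the log2 scale (SE, limma adjusted p = 0.000202). Tslp, a cytokine gene that PAR2 signalling can induce in keratinocytes, had 54.2 ± 6.38 in HdR and 38.02 ± 4.7 in WT (SD, n = 4 each), and rose by 0.50 ± 0.10. The cytokine gene Il18 fell by 0.91 ± 0.14, and the thrombin receptor gene F2r, at 0.01 ± 0.15, did not pass the test.

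Most suprabasal and cornified envelope genes were also lower in HdR. Of 27 such genes in the data 25 were tested, of which 19 were lower, 0 higher and 6 not called. The same rule called 23.9% of all genes lower and 21.3% higher. The median log2 fold change of the list was -0.68, against -0.67 for the 10 genes described here and -0.01 for all genes tested. In this list 1 gene was higher without WT 3 or with limma-voom. The keratin gene Krt10 had 49.4 ± 3.71 aligned bases per Mb in HdR and 208 ± 9.56 in WT (SD, n = 4 each). Unlike Klk7, Krt10 varied little between WT libraries, at 211, 196, 219 and 206 in WT 1 to 4. Krt1 fell by 1.40 ± 0.075, the transcription factor gene Ovol1 by 1.08 ± 0.082 and Tchh by 0.74 ± 0.081 (log2, SE). Around Cdsn, 4 neighbouring genes within 100 kb were tested. Vars2 fell by 0.19 ± 0.049, while Psors1c2, Tcf19 and Cchcr1 were at 0.33 ± 0.17, 0.06 ± 0.066 and 0.06 ± 0.082 and did not pass the test.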

How the data were processed

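Gene expression was measured by RNA sequencing of total RNA, with libraries made by the NEBNext Ultra II RNA kit and read on an Illumina instrument, per the labels' protocols. The authors deposited 1 table of whole-number signal (coverage, summed aligned bases per gene symbol and library), unscaled for depth or length. No source used here states this unit. It was read from the values, whose commonest non-zero one was 302, then 604, with 16.9% of low values whole multiples of 302. The values are therefore not counts, and no counting interval is given. Per the submitters' processing notes the genome build was GRCm38, and aligner, counting tool and strand setting are not given in the sources used here. All 8 columns were used.

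Libraries were scaled by trimmed-mean factors (TMM, trimming 30% of log ratios and 5% of levels at each end) to aligned bases per Mb. Genes with a mean of at least 1 were fitted as log2(level + 1), on which scale folds of low genes are understated, with limma 3.58.1 in R 4.3.3 (mean trend, robust variance, statmod 1.5.0) by genotype alone, HdR minus WT. Tests were two-sided, Benjamini-Hochberg adjusted over 11870 genes, and called under 0.05. The calculation was tested on simulated data. Intervals are 95% intervals of the fit. Positions and merged exon lengths came from GENCODE M21 (19158 of 19457 symbols matched) and promoter windows from RefSeq (GRCm38.p6). Figures used Python 3.11.15 and matplotlib 3.10.9.

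The members and gene lists were chosen with earlier results of these data known, so lists are described by counts without a test. Genes named are the members, Rbck1, up to 4 genes of smallest p per list, and the 3 genes nearest in pattern to each called member with a mean of at least 2. The alternatives were other scalings, filters, pseudocounts of 0.1 and 5, limma-voom with sample weights, a test against a fold of 1.2, the replicate number as a block, thinning to the smallest library, and each library, or HdR 4 and WT 4 together, left out.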

Additional observations from a re-analysis of the deposited data

Results flagged for a closer look

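Klk11 in HdR 3, at 24.8 aligned bases per Mb, stood apart from the other HdR libraries, which lay between 27.6 and 28.0. The gap was 0.875 of the range of the HdR group. It was the 1 value so marked among 20 groups of 4 libraries examined (10 genes in 2 genotypes), and chance marks about 1 group in 20.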

How the results depend on the processing

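Klk10 and Klk11 kept their direction and their calls in all 20 alternatives, and Klk5 in 19 (limma adjusted p = 0.0659 against a fold of 1.2). The count of members lower in HdR, 5 in the main comparison, ran from 3 to 6 when a library was left out. It was 1 against a fold of 1.2, where 344 genes were higher and 543 lower in all, and Klk7 (limma adjusted p = 0.146), Klk13 (0.109) and Cdsn (0.177) were also lost. Deviations of same-numbered HdR and WT libraries correlated at 0.03, -0.07, -0.22 and 0.02 across genes. HdR 1 and HdR 4 correlated best with their own number, HdR 2 with WT 3 (0.25) and HdR 3 with WT 4 (0.22). Whether the numbers mark a shared batch cannot be settled from these weak correlations. With the replicate block, 3 members were lower, 2240 genes were higher and 2524 lower, against 2527 and 2833 without it, and Klk7 (limma adjusted p = 0.0804) and Cdsn (0.0885) were not called. With a library left out, the log2 fold change ran from -0.25 to 0.031 for Klk8 and from -0.23 to 0.091 for Klk9, both turning without WT 3. Klk13 did not pass the stricter filter. With upper-quartile scaling 57.7% of all calls were higher, against 47.1%, and the members' calls did not change. In the lists, calls against a fold of 1.2 left 3 inhibitors (of 6), 3 desmosomal genes (of 8), 0 other proteases (of 6) and 8 suprabasal genes (of 19) lower, and 0 trypsin-like proteases (of 3), 0 signalling genes (of 2) and 3 basal markers (of 8) higher. With the stricter filter 0 inhibitors (of 1) and 2 sebocyte and gland markers (of 4) were higher, and 3 melanocyte markers (of 6) lower. With no filter 1 sebocyte and gland marker was lower, and with limma-voom 1 other protease was higher. Depth limits Klk13 most.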

Other observations

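The other kallikrein rows of the table were near the bottom of the range. Klk12, which lies between Klk13 and Klk11, had 0.63, 1.03, 0.327 and 0.852 aligned bases per Mb in HdR 1 to 4, against 0.927, 0.484, 1.1 and 0.412 in WT 1 to 4, without separation of the genotypes. Klk14, a trypsin-like protease of the human cornified layer, was listed at 0 in HdR 2, HdR 3, HdR 4 and WT 2, and at 0.0734 or less elsewhere. Klk4, a protease of enamel formation, was listed at 0 in 5 of the 8 libraries. Of the Kazal-type inhibitor genes beside Spink5, none passed the filter. Spink12 had 0.238 ± 0.0119 aligned bases per Mb in HdR and 0.153 ± 0.127 in WT (SD, n = 4 each).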
